A study of Mus musculus with 7 samples.

Results

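Binding of BRG1 was examined at 4 immediate early genes in mouse CD4+ T helper cells: the early growth response genes Egr1, Egr2 and Egr3, and Nr4a1. Each gene was represented by a fixed stretch of the mm9 genome build around it, and distinct reads were counted there in windows of 200 bp. The intervals were chr18:35000000-35040000 for Egr1, chr10:66960000-67040000 for Egr2, chr14:70450000-70510000 for Egr3 and chr15:101075000-101120000 for Nr4a1. Together they held 1125 of 13194729 windows, and 28 of the 26448 bound regions called across the genome. The intervals were set by position and not by their reads, though the genes were chosen with earlier results of these data known.

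BRG1 is the motor subunit of SWI/SNF complexes, which spend ATP to move or remove nucleosomes. The EGR proteins are zinc-finger transcription factors, and NR4A1, also called Nur77, is an orphan nuclear receptor. Their genes belong to the immediate early class, which T cell receptor signalling switches on without new protein synthesis. In T cells Egr1 is among the first genes to respond, Egr2 and Egr3 restrain activation and take part in anergy, and Nr4a1 is widely used as a reporter of receptor signal strength.

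Chromatin immunoprecipitation and sequencing had been carried out in 7 libraries, 1 per group. The stimulated groups were Th17, Th1 and Th2 cells treated for 1.5 h with 50 ng/ml PMA plus 500 ng/ml ionomycin, a pair of drugs that bypass the T cell receptor. The resting groups were Th1 and Th2 cells without these drugs, and the remaining BRG1 library came from naive cells that had not been cultured. An input library of pooled CD4+ T helper DNA had no antibody step. The cells came from Balb/C mice, per the labels, with no engineered allele in any group. For the 6 BRG1 libraries the mice were aged 4 to 6 weeks, and no age was listed for the input. Naive CD62L+ cells had a stated purity of 95%. Th1, Th2 and Th17 cells were grown from them in 1 round of culture over antibodies to CD3 and CD28. Th1 cultures held 1 ng/ml IL-12 with anti-IL-4, Th2 cultures 10 ng/ml IL-4 with anti-IFN-γ, and both held 100 U/ml IL-2. Th17 cultures had 100 ng/ml of IL-6, 10 of IL-1β and 1 of TGF-β with both blocking antibodies, and IL-23 was given later at 10 ng/ml. No Th17 library at rest was analysed here, so stimulation could be compared only in Th1 and Th2 cells.

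After 1 read was kept per start and strand, the libraries held 7892944 distinct reads in stimulated Th17, 3917492 in stimulated Th1 and 4261900 in stimulated Th2, against 1808000 in resting Th1, 1340208 in resting Th2, 2071800 in naive and 3531867 in input. Levels are given as RPM, reads per 1000000 distinct reads of the library. Repeated reads made up 10.2 to 11.8% of the 3 stimulated libraries and 28.5 to 41.4% of the 3 unstimulated ones. Since each group is a single library, differences could not be checked in replicates, p-values are not used, and a ratio stands for its pair of libraries rather than for conditions. Ratios carry exact conditional 95% intervals for counting error alone, and reads that PCR copied from the same molecule are not independent of each other. In such bulk material, fewer binding cells and less binding per cell cannot be told apart. The labelled cell types were not checked against marker genes, since binding near a gene does not measure its expression.

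The upstream sequences are shown for Egr2 and Nr4a1, the genes with a RefSeq promoter among the sequences at hand. All 4 intervals gained reads after stimulation, and immediate early genes are known for short control elements before their start. They are the 250 bases before a RefSeq start on build GRCm38.p6, plus strand, at chr10:67537619-67537868 for Egr2 and chr15:101266596-101266845 for Nr4a1. Capitals mark the CRE half-site, TGACG or its reverse complement CGTCA, bound by the CREB and ATF family, and the CArG box, bound by serum response factor.
Egr2: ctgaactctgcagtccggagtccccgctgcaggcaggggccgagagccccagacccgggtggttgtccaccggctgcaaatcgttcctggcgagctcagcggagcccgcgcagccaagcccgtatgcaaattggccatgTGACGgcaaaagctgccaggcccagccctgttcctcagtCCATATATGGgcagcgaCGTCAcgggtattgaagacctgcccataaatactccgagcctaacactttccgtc
Nr4a1: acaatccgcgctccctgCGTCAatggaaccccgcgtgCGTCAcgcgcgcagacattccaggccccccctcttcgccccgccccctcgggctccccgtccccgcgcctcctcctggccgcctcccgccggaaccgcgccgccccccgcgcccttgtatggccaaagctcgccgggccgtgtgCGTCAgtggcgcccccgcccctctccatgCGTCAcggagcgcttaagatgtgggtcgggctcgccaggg
RefSeq promoters were found for 2 of the 4 genes; Egr1 and Egr3 are named only. For Egr2, 5 starts were listed, and the one shown was the most upstream of those within 61 bases of the last, a choice made after the sequences were seen.

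The CRE half-site was found 2 times before Egr2 and 4 times before Nr4a1, on either strand. Among 32851 RefSeq promoters of the same length, 3.90% held it 2 or more times and 0.137% held it 4 or more times. The CArG box was found 1 time before Egr2 and not before Nr4a1, and 1.47% of promoters held it. The site of the EGR factors themselves, GCGNGGGCG, was found 1 time before Nr4a1 and not before Egr2, and 4.70% of promoters held it. The full CRE, TGACGTCA, overlaps the half-site and was in neither sequence, against 1.55% of promoters. The NR4A response element AAAGGTCA and the AP-1 site TGANTCA were in neither, against 1.34% and 6.75% of promoters. A match is a string of letters and no proof of binding, and a missing match says nothing about the factor. The reads are on mm9 and the sequences on GRCm38.p6, so where the sequences lie relative to the windows was not determined.

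All 4 intervals held more BRG1 reads after stimulation of Th1 and of Th2 cells than in the same cells at rest, while the resting and naive libraries lay close to input for the Egr1 and Egr2 intervals. The Egr1 interval held 90.7 RPM in stimulated Th17, 146 in stimulated Th1 and 118 in stimulated Th2, against 52.0 in resting Th1, 64.9 in resting Th2, 58.9 in naive and 48.7 in input. The 3 stimulated libraries were the highest, and the 3 unstimulated ones reached at most 1.33 times the input level. The Egr2 interval held 149 RPM in stimulated Th17, 224 in stimulated Th1 and 211 in stimulated Th2, against 72.5 in resting Th1, 104 in resting Th2, 72.4 in naive and 77.3 in input. Here resting Th1 and naive did not exceed input, with ratios of 0.937 each. The Egr3 interval held 170 RPM in stimulated Th17, 259 in stimulated Th1 and 219 in stimulated Th2, against 102 in resting Th1, 141 in resting Th2, 82.5 in naive and 63.7 in input. Resting Th2 was already 2.21 times input (1.81 to 2.70) at Egr3. The Nr4a1 interval held 165 RPM in stimulated Th17, 240 in stimulated Th1 and 169 in stimulated Th2, against 78.5 in resting Th1, 60.4 in resting Th2, 119 in naive and 55.5 in input. Nr4a1 was the interval in which naive cells stood above both resting cultures, at 2.15 times input (1.77 to 2.60).

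**Figure D1:**
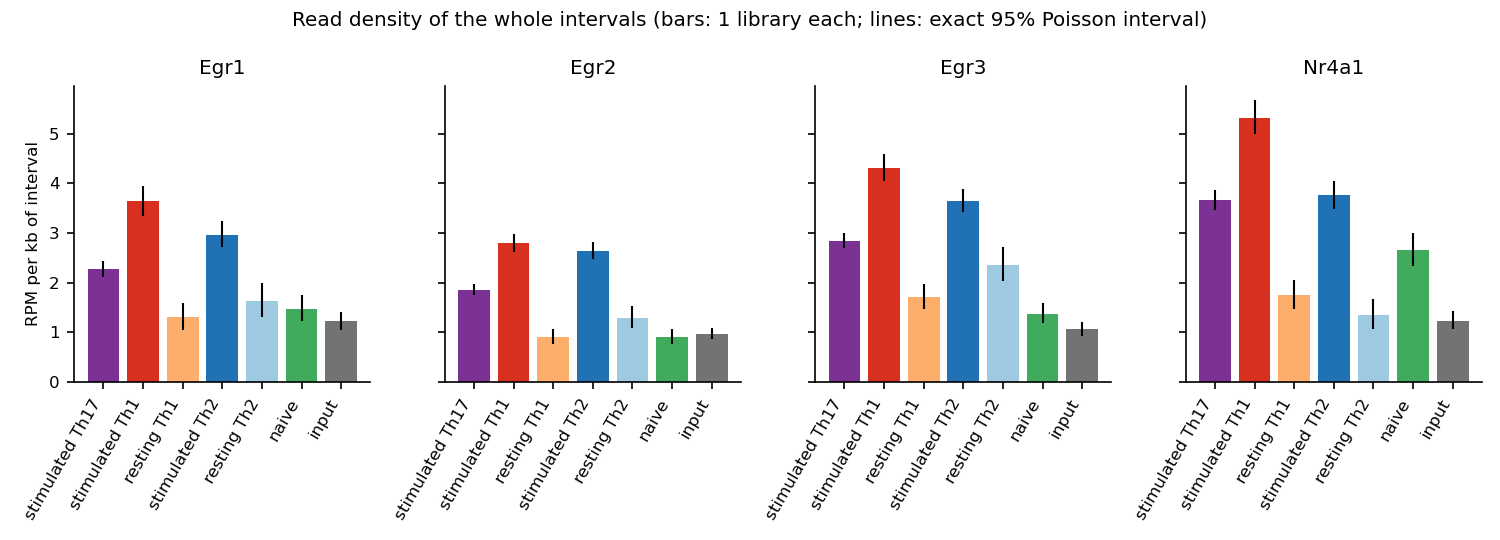
BRG1 and input read density in the 4 intervals, as RPM per kb of interval (the intervals are 40, 80, 60 and 45 kb long), with 1 bar per library and exact 95% Poisson intervals as lines. In each interval the 3 stimulated libraries stand above the 3 unstimulated ones, and naive stands above both resting libraries at Nr4a1.

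Per length, the Nr4a1 interval held the most reads in stimulated Th1 cells, 5.33 RPM per kb, followed by Egr3 with 4.31, Egr1 with 3.64 and Egr2 with 2.80. Input densities ran from 0.966 to 1.23 RPM per kb in the same intervals. Stimulated Th1 held 2.89 to 4.32 times the input level in the 4 intervals, stimulated Th2 2.43 to 3.43 times, and stimulated Th17 1.86 to 2.97 times. Those 3 libraries gave every interval a ratio over input whose 95% interval lay above 1.

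With stimulation of Th1 cells, the Nr4a1 interval rose 3.05-fold (2.56 to 3.67) and Egr2 3.09-fold (2.57 to 3.74). The ratio was 2.80 (2.25 to 3.53) for Egr1 and 2.53 (2.16 to 2.97) for Egr3. In Th2 cells the ratio of stimulated over resting was 2.80 (2.22 to 3.57) for Nr4a1, 2.03 (1.70 to 2.45) for Egr2, 1.83 (1.45 to 2.32) for Egr1 and 1.55 (1.32 to 1.82) for Egr3. With the 4 intervals summed, the ratio was 2.84 (2.60 to 3.11) in Th1 and 1.94 (1.76 to 2.14) in Th2. Whether the Th1 and Th2 ratios differ was not tested.

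For comparison the genome was divided into tiles of 50 kb. The median tile had a ratio of 0.738 in Th1 and 0.876 in Th2, so most of the genome moved the other way on this scale. A feature was called higher where its ratio was 3-fold or more, its 95% interval left out 1 and the pair held at least 10 reads. By this rule 2 of the 4 intervals, Egr2 and Nr4a1, were called higher in Th1, against 0.434% of tiles. None was called in Th2, against 0.385% of tiles. After division by the median ratio of bound regions, 1.50 in this pair, the Th1 values were 2.06 and 2.03, so neither call held. The ratios of the 4 intervals exceeded those of 98.9 to 99.6% of tiles in Th1 and of 90.7 to 99.4% in Th2. Tiles with at least 4 bound regions, a class chosen after the data were seen, had median ratios of 1.43 in Th1 and 1.19 in Th2, and 90% of them lay below 2.38 and 1.79. The share of them called higher was 3.07% in Th1 and 0.9% in Th2. The 4 intervals lay above that mark in Th1, and in Th2 all except Egr3 did.

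**Figure D2:**
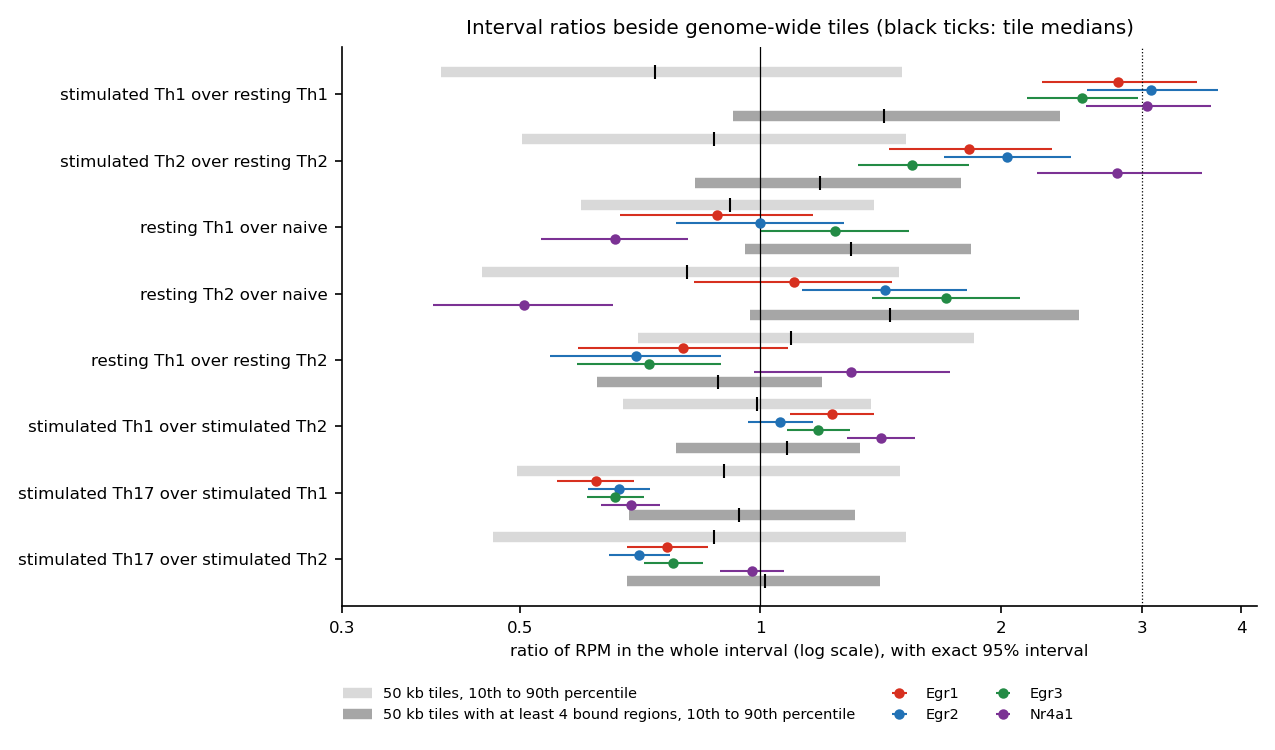
Ratio of RPM between pairs of libraries for the 4 intervals (points, with exact 95% intervals, log axis), beside the range from the 10th to the 90th percentile of all 50 kb tiles (light bars) and of tiles with at least 4 bound regions (dark bars), with medians as ticks. In the Th1 stimulation pair all 4 points lie right of both bars; the Th17 points against stimulated Th1 lie left of 1 on this scale but right of it after division by the median region ratio.

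The stimulated and unstimulated libraries also differed in depth and in repeated reads, and the part of these in the rise was not tested by replication. With every library thinned to 1340208 reads the summed ratio was 2.83 in Th1 and 1.82 in Th2, and with all repeated reads kept it was 3.02 and 2.04. Scaling mattered more. Bound regions as a class had median ratios of 1.50 in Th1 and 1.26 in Th2, and after division by these the summed ratio was 1.89 (1.73 to 2.08) and 1.54 (1.40 to 1.70). The 95% interval of each of the 4 genes lay above 1 in both subsets before and after that division.

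Within the intervals, part of the BRG1 reads lay in narrow peaks. The bound regions held 12.7 to 44.9% of the reads that a BRG1 library had in an interval, and the rest lay outside them. A window was called where its reads passed a Poisson tail of 1e-05 against the input and genome levels, with libraries at equal depth. Of the 1125 windows, 9 were called in stimulated Th17, 31 in stimulated Th1 and 25 in stimulated Th2, against 9 in resting Th1, 8 in resting Th2 and 7 in naive. These are 0.8%, 2.76%, 2.22%, 0.8%, 0.711% and 0.622% of the windows. The genome-wide shares in the same libraries were 0.0495%, 0.106%, 0.0959%, 0.0593%, 0.0737% and 0.0254%. Every library thus had a higher share of called windows in these intervals than over the genome.

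**Figure D3:**
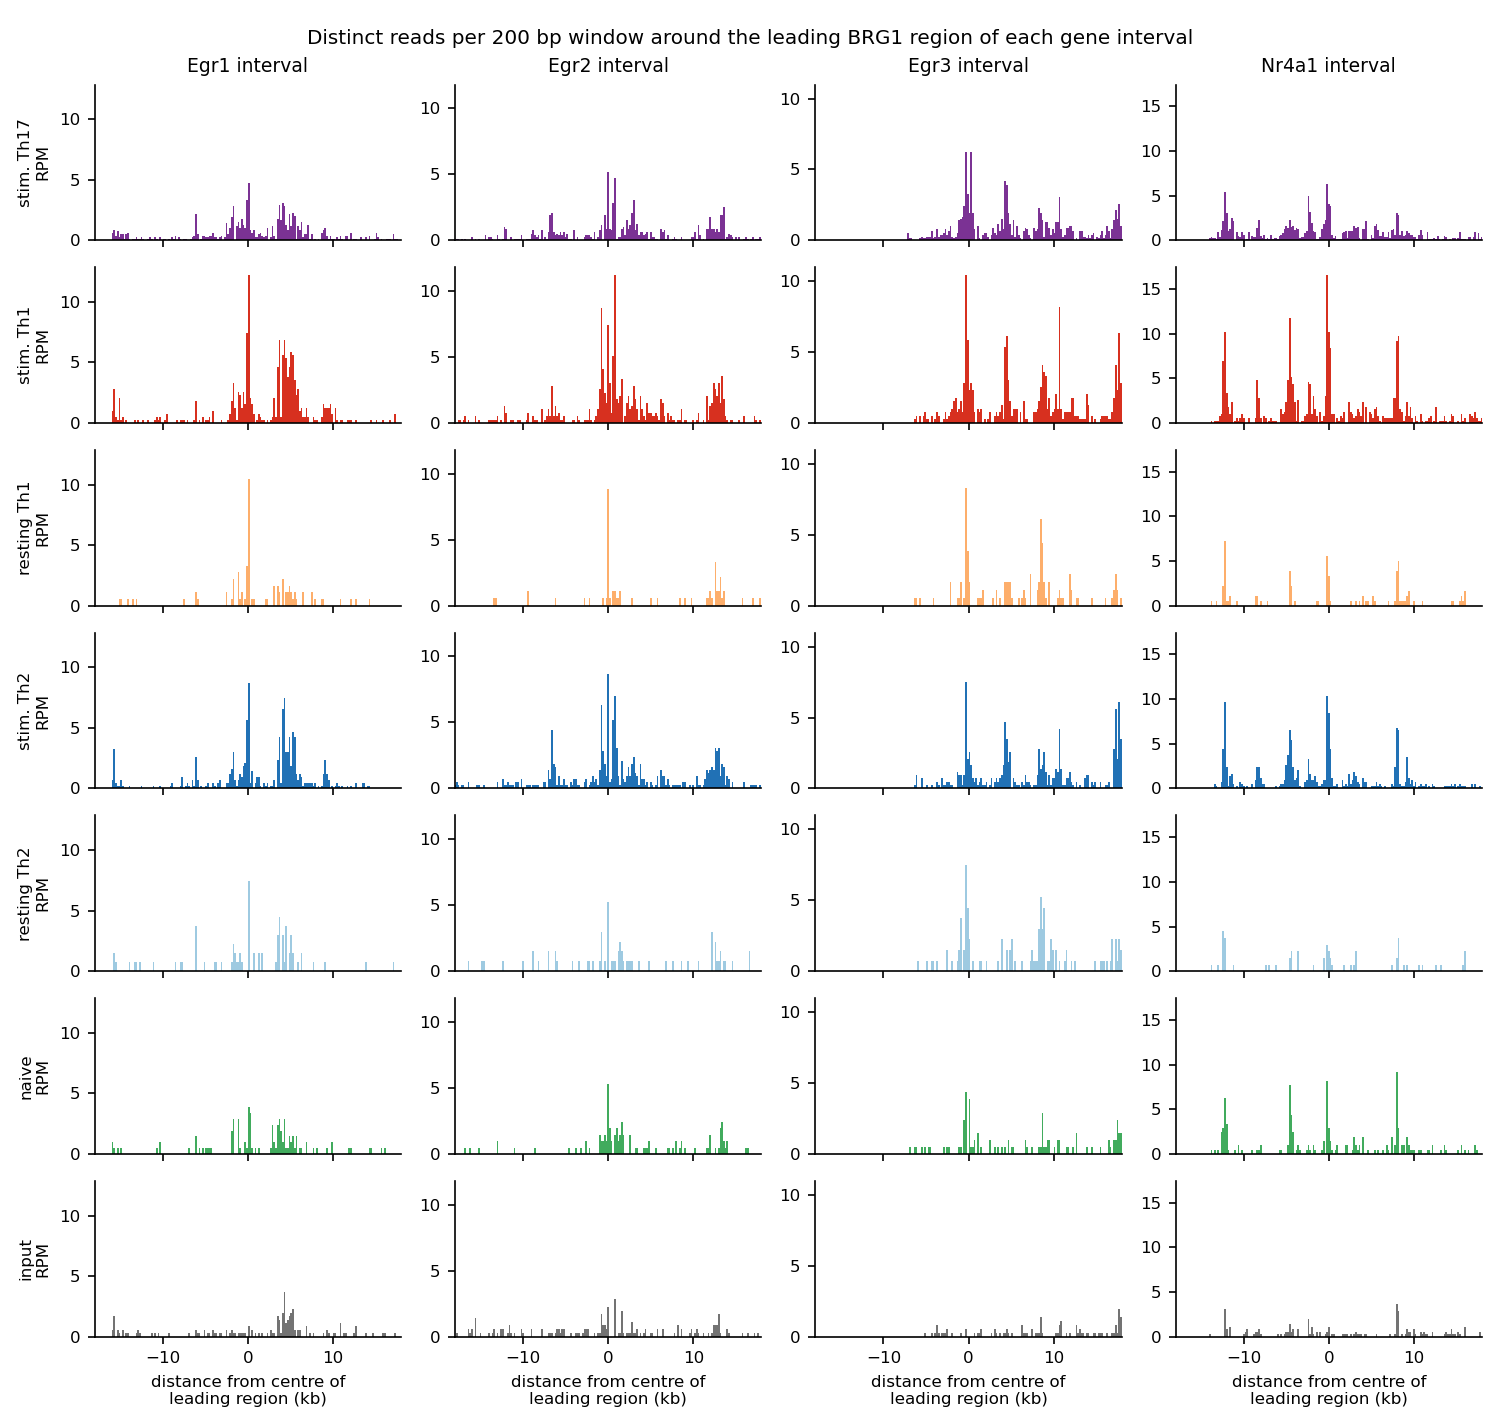
RPM per 200 bp window within 18 kb of the centre of the leading region of each interval, with 1 row per library and 1 scale per gene. The highest window at Egr1 is the same in all 6 BRG1 libraries, while the flanking peaks at Egr2 and the peaks downstream of 10 kb at Egr3 stand out in the stimulated rows.

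Called windows were joined into regions over the 6 BRG1 libraries, which gave 4 regions in the Egr1 interval, 8 at Egr2, 11 at Egr3 and 5 at Nr4a1. They are lettered here in order of position. Of the 28 regions, 5 were called in stimulated Th17, 21 in stimulated Th1 and 21 in stimulated Th2, against 7 in resting Th1, 6 in resting Th2 and 6 in naive. The shares of all 26448 regions called in the same libraries were 22.8%, 43.7%, 41.5%, 26.2%, 32.3% and 11.7%. A stimulated library and no unstimulated one called 18 of the 28, and 8 were called in both states. Over all regions, 51.4% were called in stimulated libraries only and 23.9% in both states.

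With stimulation, 13 of 26 regions with enough reads were called higher in Th1, which is 50% against a background of 24% of all regions tested. In Th2 it was 8 of 26, or 30.8% against 14.1%. No region was called lower in either, against 4.66% and 5.03%. Both subsets called 6 of the regions higher, which is 46.2% of those called in Th1 and 75% of those called in Th2. Over all regions these shares were 41.2% and 67.8%. The median ratio of the tested regions was 2.73 in Th1 and 2.34 in Th2, against 1.50 and 1.26 for all regions tested. Regions called only in stimulated libraries were defined by reads that also enter their ratios, so these ratios and their intervals can be too high. The counts of called regions also depended on the way regions were called. When 50% of the reads were used for calling and the remaining 50% for counting, 1 of 9 was called higher in Th1 against 19.9% of all regions, and 2 of 10 in Th2 against 8.93%, so the excess over the background in Th1 was lost.

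**Figure D4:**
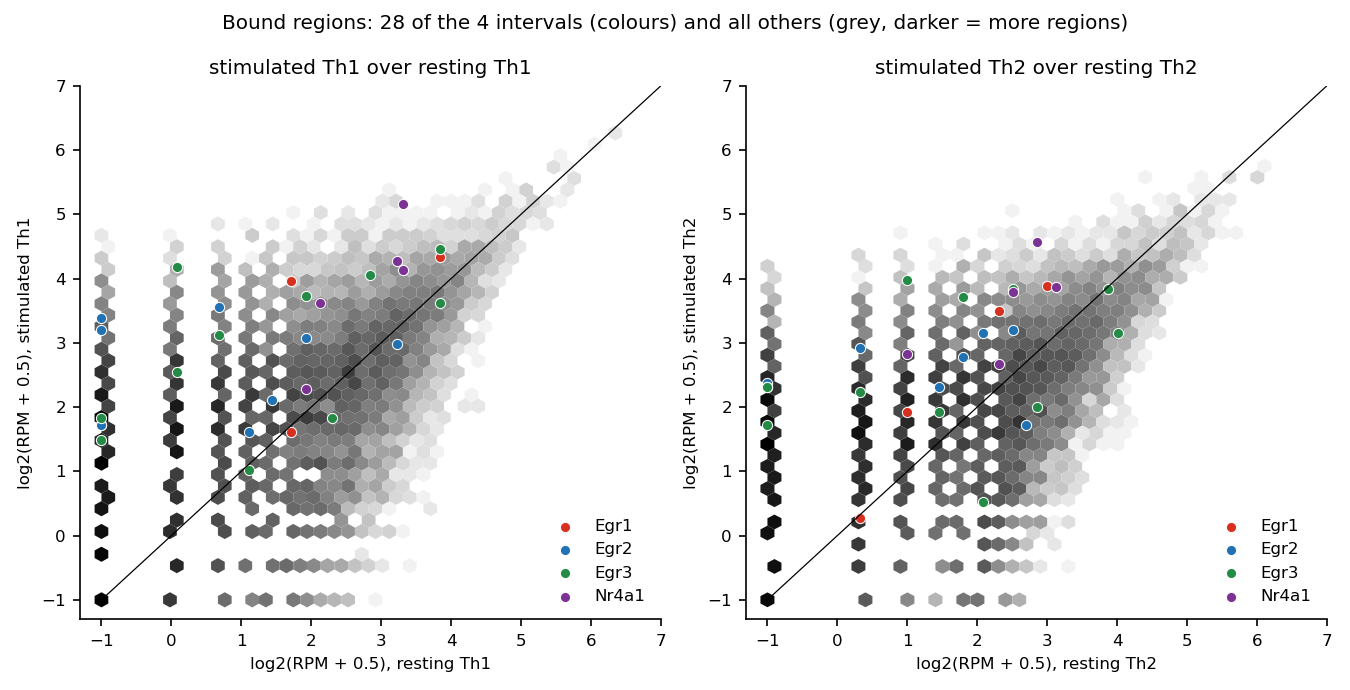
Level of each bound region in the stimulated library (vertical) and in the resting library (horizontal), as log2(RPM + 0.5), for the 28 regions of the 4 intervals (coloured points) and for all other regions (grey hexagons, darker where more regions lie). In both subsets 22 of the 26 tested coloured points have a ratio above 1. All regions tested leaned the same way, with a median ratio of 1.50 in Th1 and 1.26 in Th2.

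At Egr1, which encodes the founding EGR factor, the leading region, the one with the highest summed RPM, was region C at chr18:35015801-35016200. It held 63 reads in stimulated Th17, 77 in stimulated Th1 and 61 in stimulated Th2, against 25 in resting Th1, 10 in resting Th2, 9 in naive and 3 in input. It was called in 5 BRG1 libraries and not in stimulated Th17. Stimulation gave a ratio of 1.42 (0.895 to 2.33) in Th1 and 1.92 (0.975 to 4.20) in Th2, and both intervals hold 1. Region C was thus occupied before stimulation, and resting Th1 stood 3.18-fold above naive (1.44 to 7.75). All bound regions had a median ratio of 1.58 in that pair, by which this value was not divided.

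Region D of Egr1 lay 4800 bp further on, at chr18:35021001-35021600. It held 43 reads in stimulated Th17, 59 in stimulated Th1 and 46 in stimulated Th2, against 5 in resting Th1, 6 in resting Th2, 6 in naive and 17 in input. The stimulated libraries were the highest, and the 3 unstimulated ones, at 2.77 to 4.48 RPM, lay at or below the 4.81 RPM of input. It was called higher in Th1, 5.45-fold (2.21 to 17.4), and reached 2.41-fold (1.03 to 6.91) in Th2. Over input, region D was called in stimulated Th1 alone, so the reads that defined it also enter the Th1 ratio and can raise it. Region A, at chr18:35000201-35000400, was the other region of Egr1 called higher in Th1, and had 11 reads in stimulated Th1 against 0 at rest. Set against a floor of 3 reads per library, that is at least 1.69-fold higher, with an exact lower bound of 1.16. At the floor it is under 3-fold, so the call rests on the 0 count. Region A held 14 reads in stimulated Th2, 7 in stimulated Th17, 2 in resting Th2, 1 in naive and 6 in input. It passed over input in stimulated Th2 alone.

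Egr2 encodes a factor that restrains effector T cells. Its leading region, region G at chr10:66998801-66999000, held 41 reads in stimulated Th17, 29 in stimulated Th1 and 37 in stimulated Th2, against 16 in resting Th1, 7 in resting Th2, 11 in naive and 8 in input. On the RPM scale resting Th1, at 8.85, was the highest library at region G, above stimulated Th1 at 7.40. The ratio for stimulation was 0.837 (0.440 to 1.65) in Th1 and 1.66 (0.731 to 4.42) in Th2.

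The regions on either side of region G, each 600 bp away, had few reads before stimulation. Region H, at chr10:66999601-66999800, held 37 reads in stimulated Th17, 44 in stimulated Th1 and 30 in stimulated Th2, against 2 in resting Th1, 1 in resting Th2, 3 in naive and 10 in input. It rose 10.2-fold (2.65 to 86.5) in Th1 and 9.43-fold (1.57 to 385) in Th2. Region F, at chr10:66998001-66998200, held 9 reads in stimulated Th17, 34 in stimulated Th1 and 27 in stimulated Th2, against 0 in resting Th1, 4 in resting Th2, 2 in naive and 6 in input. In Th1 this was at least 5.23-fold higher after stimulation (lower bound 4.03), and in Th2 the ratio was 2.12 (0.740 to 8.35). The middle region was called in 5 of the 6 BRG1 libraries, and the outer pair in stimulated Th1 and stimulated Th2 alone.

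Further from the leading region, Egr2 region D at chr10:66975001-66975400 held 33 reads in stimulated Th17, 39 in stimulated Th1 and 36 in stimulated Th2, against 0 in resting Th1, 5 in resting Th2, 1 in naive and 3 in input. In Th1 this was at least 6.00-fold higher after stimulation (lower bound 4.65), and 2.26-fold (0.886 to 7.39) in Th2, where it was not called. Over input, region D was called in stimulated Th1 and stimulated Th2 alone, so the reads that defined it enter these ratios. Its Th1 ratio ran from 2.62 to 9.16 under other settings, and its Th2 ratio from 1.6 to 2.88. Regions C and E of Egr2 had 20 and 19 reads in stimulated Th2 against 0 in resting Th2, at least 2.10-fold and 1.99-fold higher. Region E had 11 reads in stimulated Th1 and 0 in resting Th1, and region C had 10 and 3. The 0 counts decided such calls: with each 0 replaced by the floor, 5 rather than 8 regions of the 4 intervals were called in Th2.

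Egr3, a close relative of Egr2 that shares its role in anergy, had 1 region called in every BRG1 library. Region B at chr14:70456801-70457600 held 139 reads in stimulated Th17, 84 in stimulated Th1 and 59 in stimulated Th2, against 25 in resting Th1, 19 in resting Th2, 18 in naive and 2 in input. The stimulation ratio of this region was 1.55 (0.982 to 2.53) in Th1 and 0.976 (0.574 to 1.73) in Th2. Its levels ran from 8.69 RPM in naive to 21.4 RPM in stimulated Th1, all well above the 0.566 RPM of input.

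The largest gain at Egr3 was in region G, at chr14:70475201-70475600, which held 44 reads in stimulated Th17, 69 in stimulated Th1 and 65 in stimulated Th2, against 1 in resting Th1, 2 in resting Th2, 5 in naive and 6 in input. It rose 31.8-fold (5.53 to 1276) in Th1 and 10.2-fold (2.72 to 86.2) in Th2, where the wide intervals follow from the counts of 1 and 2. Region G was called in stimulated Th1 and stimulated Th2 alone, so the reads that defined it also enter these ratios and can raise them. Under other settings its ratio ran from 5.43 to 37.7 in Th1 and from 3.84 to 11.1 in Th2. Region F lies 200 bp before it, at chr14:70474401-70475000, and had 50 reads in stimulated Th1 and 6 in resting Th1, a ratio of 3.85 (1.65 to 11.0), with 2.65 (1.21 to 6.88) in Th2. Regions E and H of Egr3 rose 7.38-fold (1.88 to 63.6) and 9.69-fold (1.56 to 401) in Th1, and their Th2 ratios, 5.66 and 1.47, had intervals that hold 1. They too were called in stimulated libraries alone, and under other settings their Th1 ratios ran from 3.54 to 11.1 and from 2.92 to 17.7. Region C of Egr3 was called higher in Th2, 4.25-fold (1.57 to 16.1), while its Th1 ratio of 2.42 (1.29 to 4.94) fell short of 3-fold.

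Regions D and J of Egr3, named after their values were seen, had stimulation ratios below 1 in both subsets. Region D held 46 reads in stimulated Th17, 46 in stimulated Th1 and 36 in stimulated Th2, against 25 in resting Th1, 21 in resting Th2, 9 in naive and 7 in input. Its stimulation ratio was 0.849 (0.511 to 1.44) in Th1 and 0.539 (0.306 to 0.972) in Th2. Both resting libraries lay above naive at region D, 3.18-fold (1.44 to 7.75) in Th1 and 3.61-fold (1.58 to 8.95) in Th2. All bound regions had median ratios over naive of 1.58 and 1.69, by which these values were not divided. Region J, at chr14:70499801-70500000, held 17 reads in stimulated Th17, 12 in stimulated Th1 and 15 in stimulated Th2, against 8 in resting Th1, 9 in resting Th2, 1 in naive and 0 in input. Its stimulation ratio was 0.692 (0.260 to 1.95) in Th1 and 0.524 (0.215 to 1.36) in Th2.

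Nr4a1, the nuclear receptor gene, had a leading region that rose in both subsets. Region C at chr15:101088801-101089400 held 112 reads in stimulated Th17, 138 in stimulated Th1 and 99 in stimulated Th2, against 17 in resting Th1, 9 in resting Th2, 26 in naive and 6 in input. Its level was 35.2 RPM in stimulated Th1, the highest of any of the 28 regions in any library, and 23.2 RPM in stimulated Th2. The ratio was 3.75 (2.26 to 6.62) in Th1 and 3.46 (1.75 to 7.79) in Th2. Region B, at chr15:101084401-101084600, held 18 reads in stimulated Th17, 46 in stimulated Th1 and 28 in stimulated Th2, against 7 in resting Th1, 2 in resting Th2, 16 in naive and 5 in input. It rose 3.03-fold (1.36 to 7.96) in Th1 and 4.40-fold (1.11 to 38.1) in Th2. Region B was called in stimulated Th1 and stimulated Th2 alone, so the reads that defined it enter these ratios too. Under other settings its ratio ran from 1.84 to 8.31 in Th1 and from 2.52 to 6.92 in Th2. At the other 3 regions of Nr4a1 the ratio of stimulated over resting ran from 1.31 to 2.13 in Th1 and from 1.31 to 2.56 in Th2.

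The gain was not limited to the regions called at equal depth. With reads outside them, the ratio in Th1 was 3.49 (2.75 to 4.47) for Nr4a1, 3.24 (2.46 to 4.33) for Egr1, 3.06 (2.48 to 3.81) for Egr2 and 2.76 (2.23 to 3.43) for Egr3. In Th2 it was 3.09 (2.28 to 4.28) for Nr4a1, 1.98 (1.62 to 2.44) for Egr2, 1.76 (1.36 to 2.32) for Egr1 and 1.54 (1.26 to 1.89) for Egr3. The regions came from thinned libraries, and with all distinct reads the called windows in stimulated Th1 rose from 31 to 82. Reads outside the regions thus include windows that pass at full depth. Whether the gain reached beyond such windows was not tested. In bins of 5 kb, a size chosen after the data were seen, 44 of 45 bins had a higher RPM in stimulated than in resting Th1, and 39 of the 44 tested did in Th2. The Th2 exceptions all lay at Egr3, where 7 of 12 bins were higher. Over the genome, the 149054 bins tested in Th1 and the 141647 tested in Th2 had median ratios of 1.11 and 1.12. Only bins with at least 10 reads in the pair were tested, and the deeper stimulated libraries gave more of these reads. The 50 kb tiles had median ratios of 0.738 and 0.876, so the genome as a whole did not lean this way. Of the bins in the 4 intervals, 17 were called higher in Th1, 37.8% against 6.35% of all bins tested, and 8 in Th2, 18.2% against 3.99%. At Egr3 the bin with the most reads in stimulated Th1, around regions G and H, held 70.2 RPM in stimulated Th1 and 9.40 RPM in resting Th1, and 58.0 RPM in stimulated Th2 and 20.9 RPM in resting Th2.

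**Figure D5:**
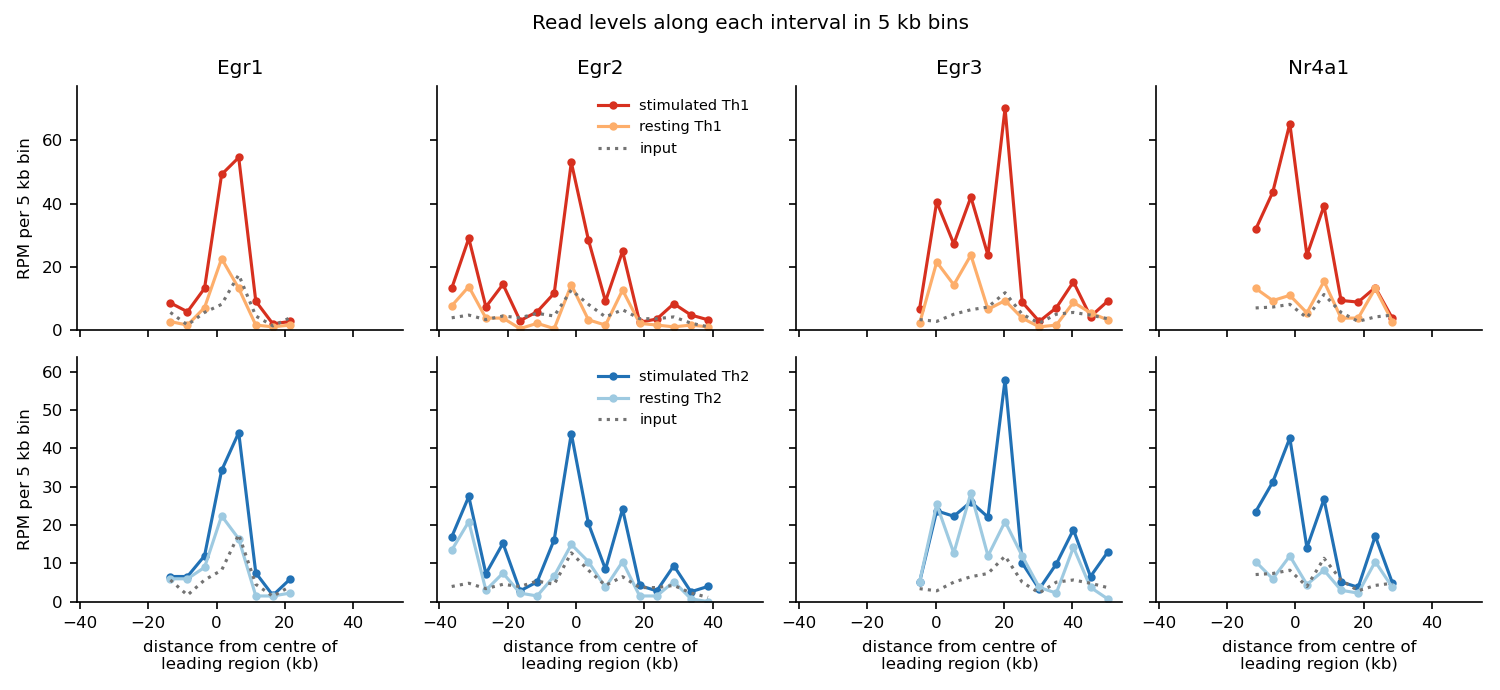
RPM in 5 kb bins along each interval, by distance from the centre of the leading region, for stimulated and resting Th1 (upper row) and Th2 (lower row), with input dotted. The stimulated lines lie above the resting ones over most of each interval, though at Egr3 in Th2 in only 7 of 12 bins. The Egr3 peak near 20 kb reaches 70.2 RPM in stimulated Th1.

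Among unstimulated cells, the Nr4a1 interval was lower in resting cultures than in naive cells, with a ratio of 0.659 (0.532 to 0.813) in Th1 and 0.507 (0.389 to 0.654) in Th2. Its region B showed this most, with 2 reads in resting Th2, 16 in naive cells and a ratio of 0.193 (0.0216 to 0.822). The Egr3 interval was higher in resting Th2 than in naive, 1.71 (1.38 to 2.11), and so was Egr2, 1.43 (1.13 to 1.82), while Egr1 was at 1.10 (0.828 to 1.46). In resting Th1 over naive, Egr3 had a ratio of 1.24 (1.00 to 1.54), Egr2 1.00 (0.786 to 1.27) and Egr1 0.883 (0.667 to 1.16). All bound regions had median ratios of 1.58 and 1.69 over naive in resting Th1 and Th2. After division by these, the ratios in Th1 were 0.559 for Egr1, 0.634 for Egr2, 0.785 for Egr3 and 0.417 for Nr4a1. In Th2 they were 0.654 for Egr1, 0.849 for Egr2, 1.01 for Egr3 and 0.301 for Nr4a1. On this scale the values above 1 at Egr1 and Egr2 in Th2 and at Egr3 in Th1 thus lay below 1. The naive library had the most repeated reads, 41.4%. With all repeated reads kept, the summed ratio over naive was 0.919 in resting Th1 and 1.11 in resting Th2, against 0.917 and 1.11 with distinct reads.

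Of 13 regions with enough reads, 3 were called higher in resting Th1 than in naive, or 23.1% against 15.7% of all regions tested. In resting Th2 it was also 3 of 13, against 20.2%, and 1, Nr4a1 region B, was called lower, 7.69% against 1.11%. Between the resting cultures, Egr2 and Egr3 had less signal in Th1 than in Th2, with ratios of 0.699 (0.546 to 0.893) and 0.726 (0.589 to 0.893). Egr1, at 0.801 (0.592 to 1.08), and Nr4a1, at 1.30 (0.982 to 1.73), had intervals that hold 1. These ratios and those for stimulation share the resting libraries, so they are not independent of each other.

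Between stimulated Th1 and Th2, Nr4a1 stood furthest apart, with a ratio of 1.42 (1.28 to 1.56) that exceeded 91.7% of tiles. Egr1 was at 1.23 (1.09 to 1.39), Egr3 at 1.18 (1.08 to 1.29) and Egr2 at 1.06 (0.965 to 1.16). No region of the 4 intervals was called higher or lower between these libraries, against 2.56% and 3.95% of all regions tested.

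Stimulated Th17 cells had lower levels than stimulated Th1 cells at all 4 intervals on the RPM scale, with ratios of 0.622 (0.557 to 0.696) for Egr1, 0.666 (0.609 to 0.727) for Egr2, 0.659 (0.606 to 0.715) for Egr3 and 0.689 (0.633 to 0.750) for Nr4a1. Against stimulated Th2 they were 0.766 (0.682 to 0.860) for Egr1, 0.706 (0.646 to 0.771) for Egr2 and 0.779 (0.716 to 0.847) for Egr3. Nr4a1, at 0.976 (0.890 to 1.07), had an interval that holds 1. The direction rests on the scale: all bound regions had median ratios of 0.579 and 0.622 in these pairs, and after division by them the summed ratio of the 4 intervals was 1.14 (1.09 to 1.20) over Th1 and 1.29 (1.23 to 1.35) over Th2. Nr4a1 was then 1.57 (1.43 to 1.72) over Th2, the furthest of the 4 from 1. Both comparisons share the Th17 library.

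Within the intervals, 8 of 28 regions were called lower in stimulated Th17 than in stimulated Th1, 28.6% against 16.7% of all regions, and 5 were called lower than in stimulated Th2, 17.9% against 17.6%. The first count ran from 2 to 18 and the second from 0 to 11 under other settings. After division by the median region ratio they were 2, against 5.52% of all regions, and 3, against 8.43%. Egr2 held 4 of the 8. Its region A, named after its values were seen, had 1 read in stimulated Th17 and 15 in stimulated Th1, a ratio of 0.0331 (0.000786 to 0.215). Region F of Egr2, beside the leading region, had 9 reads in stimulated Th17 and 34 in stimulated Th1, a ratio of 0.131 (0.0554 to 0.280). Region H on the other side was not called, with 37 and 44 reads. At Nr4a1 regions B and D were called lower than in stimulated Th1, with ratios of 0.194 (0.106 to 0.341) and 0.309 (0.209 to 0.452).

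A Pearson r of log2(RPM + 0.5) across the 6 BRG1 libraries compares the pattern of levels and not their height. Among the leading regions it was highest between Egr1 and Egr2, at 0.81. It was 0.74 between Egr1 and Egr3, 0.60 between Egr1 and Nr4a1, and 0.22 to 0.48 for the other pairs. The median r with 13841 regions outside the intervals was 0.52 for Egr1, 0.35 for Egr2, 0.44 for Egr3 and 0.34 for Nr4a1. Such values describe 6 libraries that also differ in depth. The outside region most like the leading region of Egr1 was chr5:138190401-138190600 (r = 0.998), that for Egr2 was chr17:46210801-46211200 (r = 0.994), that for Egr3 was chr18:82639601-82640000 (r = 0.989) and that for Nr4a1 was chr7:28798801-28799000 (r = 0.997). The last held 9 reads in stimulated Th17, 35 in stimulated Th1 and 17 in stimulated Th2, against 1 in resting Th1, 0 in resting Th2, 2 in naive and 0 in input. With many regions and 6 libraries such high values are to be found for any profile, and 29 to 173 outside regions had an r over 0.95 with each leading region.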

How the data were processed

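For each library the authors deposited aligned reads of 34 bases, as chromosome, start, end and strand, without a score or count. Positions are on mm9, per the submitters' processing notes. The aligner is not given in the sources used here. Per the labels' protocols, crosslinked nuclei were cut with MNase and sonicated, BRG1 was precipitated with the J1 antibody, and libraries had 18 PCR cycles before selection at 250 to 300 bases. Depth ranged from 1340208 to 7892944 distinct reads.

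Here repeats of a start and strand were collapsed to 1 read, chromosome Y was dropped, and 5′ ends were moved 75 bp. In libraries thinned to 1340208 reads, windows of 200 bp passed at a Poisson tail of 1e-05. The expected count was the genome mean or the scaled input within 1, 5 or 10 kb, whichever was larger. Windows separated by at most 1 other were merged, and the union over the 6 BRG1 libraries was counted with all distinct reads. A pair of libraries was compared by the ratio of RPM with an exact conditional 95% interval, and called at 3-fold or more with at least 10 reads and an interval without 1. A count of 0 was set against a floor of 3 reads per library. Tiles of 50 kb, tiles with at least 4 bound regions, bins of 5 kb and all bound regions served as background. No test between conditions was possible with 1 library per group.

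The members and lists were chosen with earlier results of these data known. The text names each interval's leading region by summed RPM and up to 5 regions called with stimulation. Like regions were ranked by Pearson r among those with at least 50 reads, and the closest of 3 is given. Other regions are said to be named after their values were seen. No mm9 annotation was used, so exons, introns and starts were not placed, and planned lists of other immediate early genes and of cell markers were not used. Alternatives were the repeated reads, scaling, input subtraction, read shift, depth, interval length, window size and edges, the Poisson tail, the fold and read minimum, and a split of reads between calling and counting. The steps were tested on simulated data. Python 3.11.15, numpy 2.4.6, pandas 2.3.3, scipy 1.17.1 and matplotlib 3.10.9 were used.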

Additional observations from a re-analysis of the deposited data

How the results depend on the processing

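No paired analysis was possible because each group has 1 library, and no replicate could be left out for the same reason. The direction of the stimulation ratio held in each of the 4 intervals, in both subsets, under all alternatives run. Division by the median ratio of bound regions gave 1.87 for Egr1, 2.06 for Egr2, 1.68 for Egr3 and 2.03 for Nr4a1 in Th1, 1.45, 1.62 and 1.23 for Egr1, Egr2 and Egr3 in Th2, and 1.89 and 1.54 for the 4 summed. With input RPM subtracted, the Th1 ratio was 29.5 for Egr1, 5.05 for Egr3, 7.99 for Nr4a1 and 10.4 for the sum, and the Th2 ratio 4.30 for Egr1, 5.06 for Egr2, 2.00 for Egr3, 23.0 for Nr4a1 and 3.78 for the sum. It gave no Th1 value for Egr2, whose resting level is under input. Division by the ratio in 10 kb bins without regions gave 2.99 for Egr3 and 3.36 for the sum in Th1, and intervals cut by 10 kb on each side gave 3.69 for Nr4a1 and 3.18 for the sum in Th1.

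The other comparisons of the 4 summed intervals depended on the scale. Stimulated Th17 over Th1 was 0.663 on the RPM scale and turned to 1.14 with the region median, with 0.614 in bins without regions, 0.530 with input subtracted, 0.615 in the cut intervals and 0.766 outside regions. Over Th2 it was 0.802 and turned to 1.29, with 0.761, 0.698, 0.761 and 0.902 under the same alternatives, 0.855 at equal depth and 0.842 with all reads. Stimulated Th1 over Th2 was 1.21, and 1.11 with the region median, 1.32 with input subtracted and 1.33 at equal depth. Resting Th1 over naive was 0.917, and 0.580 with the region median, 0.684 with input subtracted and 0.781 outside regions. Resting Th2 over naive was 1.11, and 0.659, 1.42 and 1.29 with the region median, input subtracted and bins without regions. Resting Th1 over Th2 was 0.825, and 0.481 with input subtracted. With the region median, single intervals also turned in Th17 over Th1, to 1.07 for Egr1, 1.15 for Egr2, 1.14 for Egr3 and 1.19 for Nr4a1, and in Th17 over Th2, to 1.23, 1.14 and 1.25 for Egr1, Egr2 and Egr3, where Nr4a1 moved to 1.57. Egr3 in resting Th1 over naive turned to 0.785 with the region median and 0.982 outside regions, and Egr2 in resting Th2 over naive to 0.849, where Egr1 moved from 1.10 to 0.654. The cause was not tested. The main results were the stimulation ratios of the intervals, all summed ratios, the regions called higher with stimulation and the called windows. Among these, 122 recomputed values stayed within the counting interval of the main value or close to the main count. A further 65 moved outside and 2, the summed Th17 ratios, turned. Among the other interval ratios, the named regions and the other counts, 748 stayed, 98 moved outside and 10, given above, turned. A value was counted as turned only where the counting interval of the main value left out 1. Other values that crossed 1 are among those that stayed or moved.

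Counts of regions called higher moved more. The 13 of 26 in Th1 became 7 of 26 with the region median (13.4% of all regions), 8 of 18 at a Poisson tail of 1e-07 (26.6%), 20 of 37 with regions called on all distinct reads (24.1%), 1 of 9 with reads split between calling and counting (19.9%), and 21 of 35 with all reads kept (29.0%). The 8 of 26 in Th2 became 4 of 19 at equal depth (12.3%), 5 of 26 with 0 counts at the floor (8.33%), 2 of 10 with split reads (8.93%) and 18 of 37 with all reads (23.9%). The 8 called lower in Th17 than in Th1 became 2 with the region median or split reads, 18 at 2-fold and 5 with at least 20 reads. The 5 called lower than in Th2 became 3 with the region median, at equal depth or with windows of 400 bp, 11 at 2-fold and 0 with split reads. Windows called over input fell at the 1e-07 tail to 3 in stimulated Th17, 17 in stimulated Th1 and 14 in stimulated Th2, and to 5 in resting Th1, 4 in resting Th2 and 3 in naive. All distinct reads gave 69, 82 and 61 in stimulated Th17, Th1 and Th2. All reads kept gave 26, 49 and 44 there, 14 in resting Th2 and 12 in naive. The floor for 0 counts and the reads outside regions were alternatives chosen after seeing the data. Depth limits single regions: with 0 to 2 reads at rest, the ratio is known only as a lower bound or within a wide interval.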
